A study of Mus musculus with 2 samples.

Results

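Chemokines are small secreted proteins that guide the movement of cells, and their receptors are membrane proteins with G protein signalling; together 52 of the 18193 genes named on the array belonged to these families. They were taken by symbol, as every gene called Ccl, Cxcl, Ccr, Cxcr or Ackr with a number, together with Cx3cl1 and Cx3cr1, from probe sets whose annotation names a single mouse gene. The cells were mouse embryonic fibroblasts (MEFs) of C57/BL6 embryos at day 13.5, grown to passage 2, that is, young primary cells. 1 culture was transfected with GapmeR Control, a non-targeting antisense oligonucleotide, and 1 with GapmeR AK156230, a single oligonucleotide that directs RNase H to the long noncoding RNA AK156230, and RNA of each was hybridized to 1 Affymetrix array. Neither culture carried a further treatment or a genetic change by the labels, and the time from transfection to harvest is not given for the arrays in the sources used here. Signals are MAS5 values on a linear scale, a ratio is GapmeR AK156230 (the knockdown) over GapmeR Control, and higher or lower below means a ratio past 2-fold, without a replicate and therefore without a p-value. A signal is called dim when it lies under the median of its array over all 45037 probe sets, which was 54.80 for GapmeR Control and 50.95 for the knockdown. Where a pair of signals is given without further words, that of GapmeR Control stands first.

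Chemokines are grouped by the spacing of their first cysteines into CC, CXC and CX3C types. Ligands such as Ccl2 recruit monocytes, CXC ligands with an ELR motif recruit neutrophils, and Cxcl9, Cxcl10 and Cxcl11 are induced by interferons and recruit activated T cells. Cxcl12, made by stromal cells including fibroblasts, retains blood progenitors and directs cell movement in the embryo through Cxcr4. Atypical receptors of the Ackr series bind chemokines without the usual G protein response and clear them, and Ackr3 does so for Cxcl12. Fibroblasts are known above all as a source of ligands, while most receptors of the family belong to leukocytes.

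AK156230 itself has no probe set in the annotation (0 found), and its level was not analysed here. Of 14 fibroblast markers, all were at or above the median on both arrays, with log2 ratios from -1.87 for Pdgfra to 0.06 for Dcn and a median of -0.84. Of the leukocyte markers, 9 of 16 were at or above the median on either array, and the summed signal of the list was 1777.3 against 1787.6, control first, a sum over probe sets that are not on a common scale. Of these 16 markers 11 had log2 ratios below 0, with a median of -0.19. The pan-leukocyte gene Ptprc was dim on both arrays, with 30.89 and 25.85, as was Itgam with 32.72 and 17.34. In a culture of mixed cells, fewer cells of a type and less RNA per cell cannot be told apart.

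Among the chemokine and receptor genes, 6 were lower and 1 was higher. Cxcl12, Cxcl5, Ackr3, Ccl7 and Ccl2 were lower and at or above the median with GapmeR Control, Ccl3 was lower but dim on both arrays, and Cxcl10 was higher. As shares these were 11.5% lower and 1.92% higher of 52 genes, where 3.85% of all named genes were lower and 1.59% were higher. Among the 23 family genes at or above the median on the brighter array, 5 were lower (21.7%) and 1 was higher (4.35%), where 4.92% of the 12319 named genes of that brightness were lower and 1.9% were higher. Cxcl5 and Cxcl10 reached this set only through the array on which they were high, so the count is no support for a difference. Of the 18 family genes at or above the median on both arrays, a set added after the values were seen, 4 were lower and none was higher, where 3.8% of the 11362 named genes of that kind were lower and 1.35% were higher. The median log2 ratio of the 52 genes was -0.11, and that of all named genes was -0.074. Log2 ratios below 0 were found in 35 of the 52 family genes (67.3%) and in 58.8% of all named genes. With both arrays scaled to the same median, every log2 ratio moved up by 0.105, and 27 of the 52 were below 0, at a median of -0.008 beside 0.032 for all named genes. Of all named genes 289 were higher and 700 lower as deposited, and 388 and 583 after that scaling, when 1 of the 52 was higher and 5 were lower. The ligands made up 32 of the 52 genes, of which 5 were lower (15.6%) and 1 was higher (3.12%). The receptors were the other 20, of which 1 was lower (5.0%), and 14 of them were dim on both arrays. Among genes at or above the median on the brighter array, 4 of 17 ligands (23.5%) and 1 of 6 receptors (16.7%) were lower, beside the 4.92% above. The limit given for Cxcl5 and Cxcl10 holds here too.

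**Figure D1:**
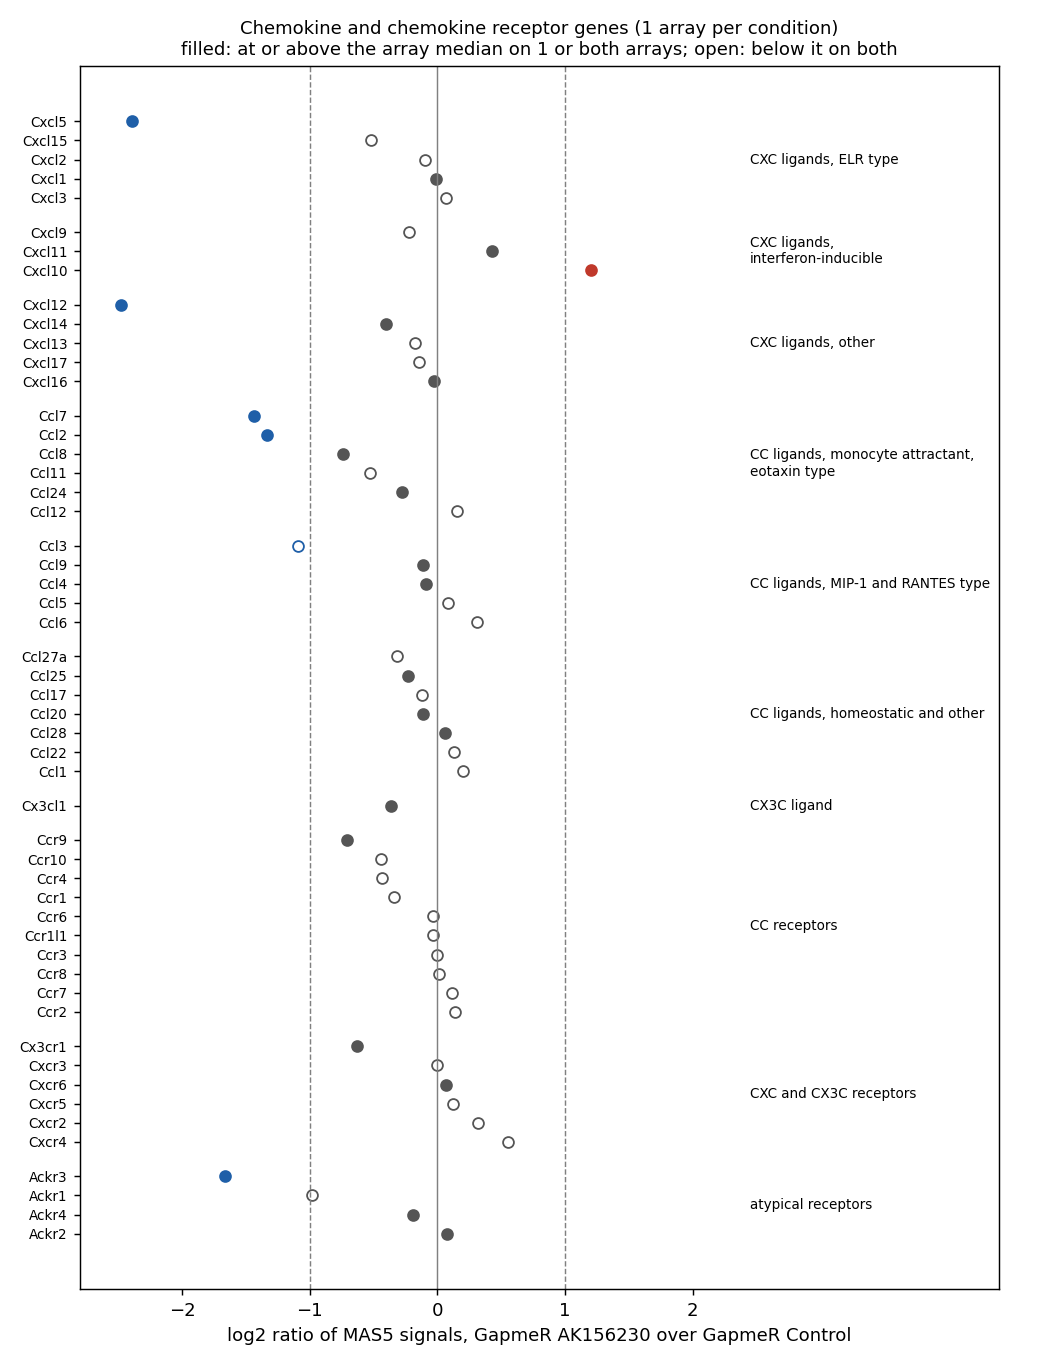
Knockdown over control as log2 ratio for each of the 52 chemokine and chemokine receptor genes, grouped by role, with 1 point per gene from 1 array per condition. Points are filled where the gene is at or above the array median on 1 or both arrays and open where it is dim on both, blue where lower and red where higher by 2-fold or more, and dashed lines mark 2-fold. Cxcl12 lies at -2.48, Cxcl5 at -2.39, Ackr3 at -1.67 and Cxcl10 at 1.20.

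The 250 bases before the start sites of 4 of these genes are shown from RefSeq (GRCm38.p6), 5′ to 3′ on the strand of the gene: Cxcl12 and Ackr3, ligand and clearing receptor, which were both lower, and Cxcl10 and Cxcl1, which are known targets of interferon and NF-kB signalling and differed in their ratios. Capitals mark the GC box letters GGGCGG, the TATA box letters TATAAA, the NF-kB letters GGANNTTCC and the interferon element letters GAAANNGAA, each on either strand.
Cxcl12, chr6:117168285-117168534, plus strand: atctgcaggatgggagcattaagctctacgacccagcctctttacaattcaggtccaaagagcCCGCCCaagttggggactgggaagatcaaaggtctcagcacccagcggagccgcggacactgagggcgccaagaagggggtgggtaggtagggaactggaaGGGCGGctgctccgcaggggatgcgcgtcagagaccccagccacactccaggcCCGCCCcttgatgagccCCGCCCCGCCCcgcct
Ackr3, chr1:90203730-90203979, plus strand: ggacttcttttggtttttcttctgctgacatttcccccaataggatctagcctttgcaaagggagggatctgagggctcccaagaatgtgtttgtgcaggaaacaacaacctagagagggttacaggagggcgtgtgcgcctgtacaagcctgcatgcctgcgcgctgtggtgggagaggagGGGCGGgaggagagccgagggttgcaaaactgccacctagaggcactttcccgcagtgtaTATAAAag
Cxcl10, chr5:92348890-92349139, minus strand: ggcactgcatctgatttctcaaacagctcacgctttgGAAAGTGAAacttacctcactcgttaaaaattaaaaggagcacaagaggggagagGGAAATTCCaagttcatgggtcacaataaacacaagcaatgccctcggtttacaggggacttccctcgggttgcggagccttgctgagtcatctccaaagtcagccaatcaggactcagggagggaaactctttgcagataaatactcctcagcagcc
Cxcl1, chr5:90890995-90891244, plus strand: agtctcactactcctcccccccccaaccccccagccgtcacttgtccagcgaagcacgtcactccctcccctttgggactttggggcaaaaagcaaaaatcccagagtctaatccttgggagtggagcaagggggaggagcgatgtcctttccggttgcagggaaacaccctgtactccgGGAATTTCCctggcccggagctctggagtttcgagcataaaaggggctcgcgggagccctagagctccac

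The window of Cxcl12 held the GC box letters at 5 places, of which the last overlaps the one before it by 1 base. That of Ackr3 held them once, together with the TATA box letters, which lay right before the start site, from base -8 to -3. Cxcl10 held the NF-kB letters from base -158 to -150 and the interferon letters from base -213 to -205, counted back from the start site. Cxcl1 held the NF-kB letters from base -70 to -62. Of 32851 RefSeq windows of this length 32.7% held the GC box letters, 12.4% the TATA box letters, 3.59% the NF-kB letters and 7.13% the interferon letters. RefSeq windows were at hand for 39 of the 52 genes. There was none for Ccl2, Ccl7 and Cxcl5, so these lower genes were not searched for any of the letters. The NF-kB letters were in those of 7 genes (Ccl1, Ccl12, Ccr3, Cxcl1, Cxcl2, Cxcl3 and Cxcl10) and the interferon letters in those of 6 (Ccl1, Ccl3, Ccr2, Cxcl9, Cxcl10 and Cxcl14). The GC box letters were in those of 7 genes, Cxcl12 and Ackr3 among them, and the TATA box letters in those of 13, Ackr3 among them. These are matches of letters and not sites shown to be bound.

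Cxcl12 had the largest difference among the 52 genes at the brightest probe set, ahead of Cxcl5 at -2.39, and its signal stayed above the array median in both cultures. It lies on chromosome 6 from 117168535 to 117181368. It went from 2173.67 in the control culture to 389.91, which is 5.57-fold lower (log2 ratio -2.48). Of the 12319 named genes at or above the median, 70 (0.568%) had a log2 ratio this low. A second probe set of Cxcl12 gave 596.17 and 112.67, 5.29-fold lower. The third was dim, with 50.49 and 36.69, and had a log2 ratio of -0.46, so that the mean over the probe sets was -1.78, behind Cxcl5.

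Ackr3, the clearing receptor of Cxcl12, was also lower, while its signalling receptor Cxcr4 was dim. Ackr3 lies on chromosome 1 from 90203980 to 90215724, and it went from 370.81 in the control culture to 116.86, 3.17-fold lower. Its only probe set has an identifier ending in _s_at, the suffix of probe sets that can match several transcripts, and Ackr3 drops out where such probe sets are not used. Cxcr4 had signals of 17.04 and 25.01, both far under the array medians, with a log2 ratio of 0.55 that became 0.25 when the 25th percentile of all signals (24.3) was added to every signal. The remaining atypical receptors were within 2-fold. Ackr1, which carries chemokines on endothelium and red cells, was next to the threshold at 1.97-fold but dim on both arrays, with 45.78 and 23.21. Ackr2, which clears inflammatory CC ligands, had signals of 61.36 and 64.57, and Ackr4, which clears the ligands of Ccr7 and Ccr9, had 62.75 and 54.93.

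Of the monocyte attractants, Ccl7 and Ccl2 were lower. Ccl2, the main ligand of Ccr2 and a common product of activated fibroblasts, went from 630.96 in the control culture to 249.54, 2.53-fold lower. Ccl7, another ligand of Ccr2, had signals of 399.66 and 147.88 and was 2.70-fold lower. Both were thus above the array median in either culture, and 2.95% and 2.55% of named genes at or above the median had log2 ratios as low. Ccl8, a relative of both, had signals of 89.70 and 53.81, 1.67-fold apart and within the threshold. The eosinophil attractant Ccl24 had 89.54 and 73.81. The eotaxin Ccl11 was dim on both arrays with 26.49 and 18.37, as was the monocyte attractant Ccl12 with 42.90 and 47.64. The receptor Ccr2 was dim on both arrays, with 34.95 and 38.36 at its brightest probe set and log2 ratios from -0.63 to 0.13 over its 4 probe sets.

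**Figure D2:**
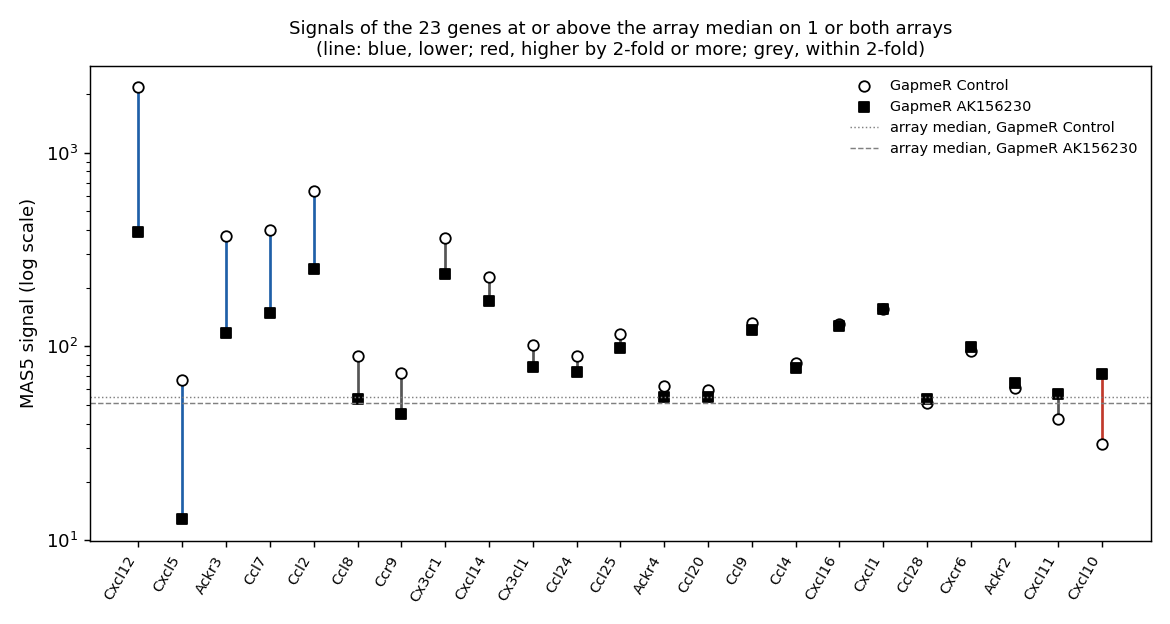
Signals (MAS5, log axis) of the 23 chemokine and receptor genes at or above the array median on 1 or both arrays, ordered by log2 ratio, with a circle for GapmeR Control and a square for GapmeR AK156230 joined by a line. The dotted and dashed lines are the array medians of 54.80 and 50.95. Cxcl12 spans 2173.67 to 389.91 and Ccl2 630.96 to 249.54, while Cxcl10 goes from 31.25 to 71.89, and signals of different probe sets are not on a common scale.

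The neutrophil attractants did not move together. Cxcl5, which acts on Cxcr2, went from 67.21 in the control culture to 12.80, 5.25-fold lower. The second of these values lies under the 25th percentile of its array, and with 24.3 added to every signal the log2 ratio was -1.30 in place of -2.39. Cxcl1, another ligand of Cxcr2 and an early product of stimulated fibroblasts, had signals of 156.67 and 155.58, a log2 ratio of -0.010. Its other probe sets gave -0.20 and 0.045. Cxcl2, Cxcl3 and Cxcl15 were dim on both arrays, with log2 ratios of -0.099, 0.066 and -0.52. Cxcr2 was dim as well, with 13.94 and 17.33.

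Among the interferon-induced ligands Cxcl10 was higher. It went from 31.25, which is dim, to 71.89, which is above the median, a ratio of 2.30. With 24.3 added to every signal its log2 ratio was 0.79 in place of 1.20, that is, within 2-fold. Cxcl11 went from 42.26, dim, to 56.95, a log2 ratio of 0.43, and a second probe set was near 4 on both arrays (3.65 and 3.84). RefSeq lists Cxcl11 as a transcribed pseudogene in this assembly of the mouse genome. Cxcl9 was dim on both arrays, with 27.93 and 23.92, and a second, dimmer probe set had a log2 ratio of 0.66. Their receptor Cxcr3 was dim, with 48.81 and 48.57.

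The other CXC and CX3C ligands were within 2-fold. Cxcl14, a ligand made by epithelium and fibroblasts, had signals of 228.51 and 172.47, a log2 ratio of -0.41, and its other probe set had 183.47 and 181.03. Cxcl16, a membrane-bound ligand of Cxcr6, had 130.68 and 128.15, but a second probe set gave 42.59 and 69.52, a log2 ratio of 0.71. Cxcr6 itself had 94.69 and 98.91 at its brightest probe set, and another went from 24.00 to 82.48, which is 3.44-fold higher. The probe sets of Cxcr6 thus disagreed, and by the rule of the brightest probe set the gene counts as within 2-fold. Cx3cl1, a membrane-bound ligand also called fractalkine, had 101.36 and 78.76, and its 4 probe sets had log2 ratios from -0.62 to -0.17. Its receptor Cx3cr1, a marker of microglia and monocytes, had 364.14 and 235.10, a log2 ratio of -0.63, with -0.29 at a dim second probe set. The B cell attractant Cxcl13 and the mucosal Cxcl17 were dim on both arrays.

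The remaining CC ligands lay within 2-fold apart from Ccl3. Ccl3, also called MIP-1 alpha, had signals of 20.01 and 9.39, under the 25th percentile of each array (25.03 and 23.56), and its log2 ratio of -1.09 became -0.40 with 24.3 added to every signal and -0.99 with arrays scaled to the same median. Ccl4, or MIP-1 beta, had 82.55 and 77.48. Ccl9 had 131.68 and 122.01, and a second probe set went from 86.90 to 54.56, a log2 ratio of -0.67. Ccl5 and Ccl6 were dim on both arrays, with log2 ratios of 0.082 and 0.31. Of the ligands of lymphoid and epithelial tissue, Ccl25 had 115.39 and 98.26, Ccl20 had 59.76 and 55.10, and Ccl28 had 51.13 and 53.36. A second, dim probe set of Ccl25 had a log2 ratio of 0.78, which turned the mean of the gene to 0.27. Ccl1, Ccl17, Ccl22 and Ccl27a were dim on both arrays, with log2 ratios from -0.32 to 0.20.

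Most receptors were dim in both cultures. Of the 20 receptors 14 were dim on both arrays, with log2 ratios from -0.98 to 0.55 and a median of -0.005. Dim signals limit what these ratios can show, and no detection limit was measured. Among 10 CC receptors Ccr9, the receptor of Ccl25, was the only gene above the median on an array, with 73.33 and 44.75, and the log2 ratios of its 5 probe sets ran from -0.71 to 1.10. Ccr1, Ccr1l1, Ccr2, Ccr3, Ccr4, Ccr6, Ccr7, Ccr8 and Ccr10 lay between 11.19 and 36.57 in the control culture and between 11.26 and 38.36 in the other. The B cell receptor Cxcr5 was also dim, with 19.68 and 21.41. Over all 52 genes 29 were dim on both arrays and 7 of them were under the 25th percentile on both.

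**Figure D3:**
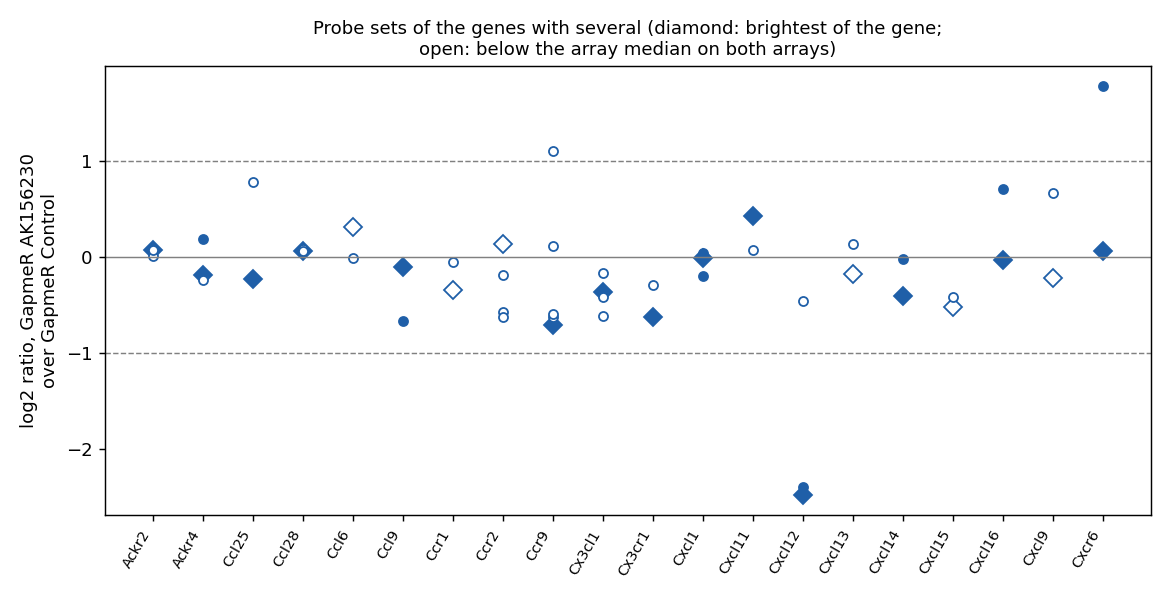
Knockdown over control as log2 ratio for every probe set of the 20 chemokine and receptor genes that have several, with a diamond for the brightest probe set of a gene and circles for the others. Open symbols are dim on both arrays and dashed lines mark 2-fold. The brighter probe sets of Cxcl12 lie at -2.48 and -2.40, while those of Cxcr6 lie at 0.06 and 1.78.

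How far single probe sets can be read is shown by genes with several. In 5119 named genes the 2 brightest probe sets were at or above the median. The difference in log2 ratio between these 2 probe sets of a gene gave an SD of 0.277 per probe set. It is a spread between probe sets on the same arrays and holds no spread between cultures or arrays. Of the 52 genes 20 had several probe sets, and in 7 of these the 2 brightest were both at or above the median, with differences in log2 ratio of up to 1.72, found in Cxcr6. Among the lower genes only Cxcl12 had further probe sets, so the values of Cxcl5, Ackr3, Ccl7, Ccl2 and Ccl3 rest on a single probe set each, as does that of Cxcl10.

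Chemokine genes lie in clusters that arose by duplication, and neighbours within them had different ratios. On chromosome 11 (82035577 to 82179812), 6 measured genes stand in the order Ccl2, Ccl7, Ccl11, Ccl12, Ccl8 and Ccl1, and their log2 ratios were -1.34, -1.43, -0.53, 0.15, -0.74 and 0.20. The lower pair Ccl2 and Ccl7 are thus neighbours at an end of this stretch of 144.2 kb. On the same chromosome (83525778 to 83664683), Ccl5, Ccl9, Ccl6, Ccl3 and Ccl4 had log2 ratios of 0.082, -0.11, 0.31, -1.09 and -0.091. On chromosome 5 (90759298 to 90905938), Cxcl5 stands first, at -2.39, before Cxcl3, Cxcl15, Cxcl1 and Cxcl2, whose log2 ratios were from -0.52 to 0.066. Further along chromosome 5 (92321331 to 92363296), Cxcl9, Cxcl10 and Cxcl11 were at -0.22, 1.20 and 0.43. The receptor cluster on chromosome 9 (123767211 to 124109140), with Ccr9, Cxcr6, Ccr1, Ccr1l1, Ccr3 and Ccr2, held no gene past 2-fold. The 6 lower genes were short, from 1.54 to 12.8 kb with a median of 2.10 kb, whereas the 605 named genes of known length that were lower at or above the median signal had a median of 81.0 kb. All 52 chemokine and receptor genes had a median of 5.40 kb, beside 22.6 kb for named genes at or above the median signal.

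**Figure D4:**
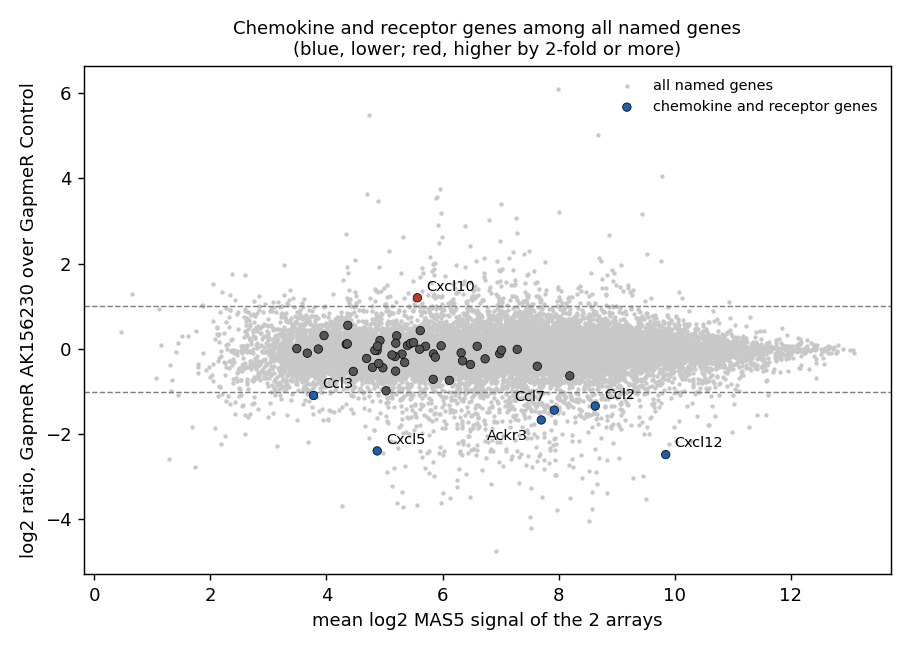
Knockdown over control as log2 ratio against the mean log2 MAS5 signal of the arrays, with 1 point for each of 18193 named genes in light grey and the 52 chemokine and receptor genes outlined in black, blue where lower and red where higher by 2-fold or more. Cxcl12 lies at -2.48 and Cxcl10 at 1.20, and dashed lines mark 2-fold.

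NF-kB, a transcription factor held back by Nfkbia, drives Ccl2, Cxcl1 and Cxcl5 in stimulated fibroblasts. Of 24 measured genes of the NF-kB pathway and its targets 2 were higher (8.33%) and 2 were lower (8.33%), beside 1.59% and 3.85% of all named genes, and the median log2 ratio was 0.019 beside -0.074. The 2 higher genes were targets and the 2 lower genes act upstream, but within 2-fold both kinds went either way. The targets Bcl3 and Birc3 had log2 ratios of -0.82 and 0.20, and the upstream genes Tlr4 and Myd88 had -0.91 and 0.48. Tnfaip3, a target that feeds back on the pathway, had signals of 58.46 and 188.28 (log2 ratio 1.69), but 0.74 as the mean of its probe sets. Icam1, an adhesion protein, had 199.45 and 403.94 (1.02), or 0.94 with 24.3 added to every signal. Nfkbia had 1019.72 and 997.63 (-0.032). Il1r1, the receptor of interleukin 1, had 206.44 and 89.06 (-1.21), or -0.92 as the mean of its probe sets. Ikbkb, a kinase of the pathway, was next to the threshold with 384.15 and 190.99 (-1.01), and was within 2-fold with arrays scaled to the same median (-0.90), after quantile normalization (-0.95), with 24.3 added to every signal (-0.92) and as the mean of its probe sets (-0.36).

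Of 13 genes of interferon signalling 1 was higher (7.69%) and none was lower, beside 1.59% and 3.85% of all named genes, with a median of -0.023. Irf7, a factor that drives interferon genes, had signals of 52.41 and 128.41 (1.29), or 0.99 with 24.3 added to every signal. Irf9, another factor of the interferon response, had 123.47 and 207.24 (0.75). Irf1 had 230.06 and 245.06 (0.091), and Ifnb1, the gene of interferon beta, was dim on both arrays with 22.90 and 18.00.

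Downstream of the receptors, 24 of 25 genes were within 2-fold, with a median log2 ratio of -0.16. Of these genes 4.0% were higher and none was lower, beside 1.59% and 3.85% of all named genes. Rgs16 had 320.42 and 593.30 (0.89), but 1.11 as the mean of its probe sets, which is past 2-fold. The G protein subunit Gnai1 was higher, with 385.26 and 1008.20 (1.39), while Gnai2, which carries most chemokine signals in leukocytes, had 1700.95 and 1655.37 (-0.039). Of 11 relatives outside the naming rule Cmklr1, the receptor of chemerin, was lower with 71.33 and 34.57 (-1.05). That is 9.09% of them, beside 3.85% of all named genes, and none was higher. Cmklr1 was within 2-fold in 5 of 6 alternatives, where its log2 ratio was -0.70 to -0.96. Mif, a ligand of Cxcr4 and Cd74, had 3884.32 and 3583.68 (-0.12).

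**Figure D5:**
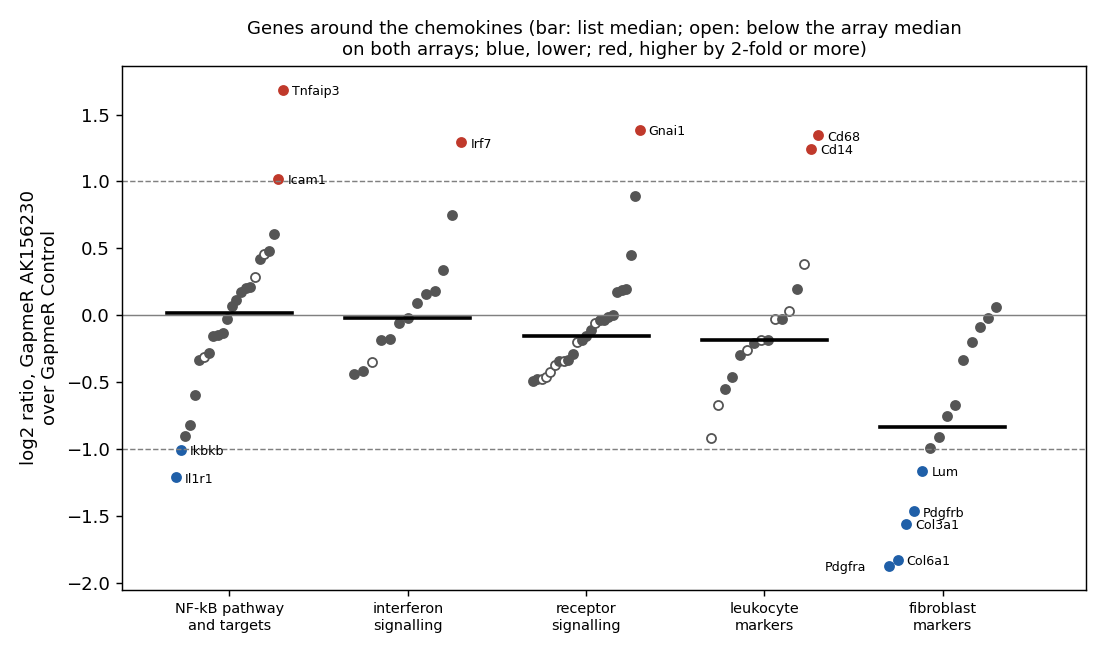
Knockdown over control as log2 ratio for each gene of 5 related lists, with a black bar at the list median and dashed lines at 2-fold. Filled points are at or above the array median on 1 or both arrays, and genes past 2-fold are named. The medians are 0.019 for the NF-kB list, -0.023 for interferon signalling, -0.16 for receptor signalling, -0.19 for leukocyte markers and -0.84 for fibroblast markers.

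Markers of the cells that make or receive these ligands also differed between the cultures. Of 14 fibroblast markers 5 were lower (35.7%, beside 4.92% of named genes at or above the median on the brighter array), namely Pdgfra (1038.96 and 283.31), Col6a1 (1392.21 and 391.80), Col3a1 (4711.84 and 1599.46), Pdgfrb (1350.72 and 488.64) and Lum (486.72 and 217.15), and the summed signal of the list was 47943.1 against 33047.9. Vim and S100a4, which fibroblasts also express, had log2 ratios of -0.087 and -0.022. Cxcl12, Ccl2 and Ccl7 were lower in the same culture, and the part of fibroblast content in their ratios was not tested. Among the 16 leukocyte markers Cd68 (108.03 and 274.59) and Cd14 (95.25 and 225.40) were higher, that is 12.5%, beside 1.59% of all named genes. None was lower, beside 3.85%, and the macrophage genes Csf1r (174.17 and 141.55) and Adgre1 (86.97 and 59.19) had ratios below 1. Of 8 endothelial markers 5 were dim on both arrays. Kdr alone was higher (44.54 and 90.91), that is 12.5% of the list, beside 1.59% of all named genes. With 24.3 added to every signal Kdr was within 2-fold (0.74). It was at or above the median only in the knockdown culture. The other 7 endothelial markers had log2 ratios from -0.49 for Tie1 to 0.74 for Vwf. Of 8 epithelial markers 4 were dim on both arrays, and Cldn4 (32.57 and 94.88) and Krt18 (126.94 and 298.63) were higher. Epcam had a ratio below 1 (147.65 and 103.10), and the other 5 epithelial markers had log2 ratios from -0.75 for Esrp1 to 0.073 for Krt8. Their summed signals were 276.6 and 333.5 for the endothelial and 510.7 and 689.4 for the epithelial list, and their part in the ratios of the chemokines was not tested.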

How the data were processed

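Young MEFs (passage 2) were profiled on single Affymetrix arrays, 1 for each condition. The deposited values are intensity signals on a linear scale, which the authors computed by MAS5 with the GeneChip Operating Software. Software version and scaling target are not stated in the labels or methods, and detection calls were not used. The methods name a porcine array, but the probe sets are annotated as mouse genes on the platform of the deposited table, and this annotation was used. Ratios were taken on the signals as deposited. The test named in the methods (SAM) needs several arrays per group, so no test was run, and precision is limited by the number of arrays.

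Of 45037 probe sets, 34945 had 1 gene symbol, 932 had several and 9160 were not listed. Symbols were looked up through Entrez IDs in RefSeq (GRCm38.p6) for 34741. A gene was represented by the brightest of its probe sets (by mean log2 signal). Ccl19, Ccl21a, Ccl21b, Ccl21c, Ccl26 and Cxcr1 were not named by a probe set of a single gene and are not reported as genes here. Members, lists and the rule for naming genes (every member at or above the median on an array or past 2-fold, and up to 4 members a list past 2-fold, plus defining markers and inducers) were chosen with earlier results of these data known; the fifth fibroblast marker, the dim receptors and ligands and the genes named for contrast were added after their values were seen. Alternatives were scaling to the same median, quantile normalization, loess on mean signal (span 0.3), an offset at the 25th percentile (24.3), the mean of all probe sets, leaving out _x_at and _s_at probe sets, thresholds of 1.5-fold and 3-fold, minimum signals (on both arrays as a later addition) and unmodified symbols. The counting was tested on simulated data. Python 3.11.15, numpy 2.4.6, pandas 2.3.3, statsmodels 0.14.6 and matplotlib 3.10.9 were used.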

Additional observations from a re-analysis of the deposited data

How the results depend on the processing

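No paired analysis was possible because each condition has 1 array. Of 143 values under alternatives, for 24 genes, 9 moved by more than the SD of 0.277 per probe set. That SD is a spread between probe sets of a gene and does not measure the spread between cultures. Most of the 143 belong to genes within 2-fold. No gene past 2-fold changed sign, but some within 2-fold did. As the mean of all probe sets, Ccl25 went from -0.232 to 0.273 and Cxcl16 from -0.028 to 0.339. The count of higher genes, 1 as reported, was 0 with 24.3 added to every signal, at a 3-fold threshold, among genes at or above the 75th percentile of the brighter array and, in a setting added after seeing the data, among genes at or above the median on both arrays. The count of lower genes, 6 as reported, was 10 at 1.5-fold and 3 at 3-fold, and from 4 to 6 under the other alternatives. The median log2 ratio was -1.39 among genes at or above the 75th percentile, which leaves fewer genes, and from -0.255 to -0.008 otherwise. Cxcl12, Cxcl5, Ccl2 and Ccl7 were past 2-fold under each scaling, offset and probe set alternative, as was Ackr3 where it was measured. Signals near the array median limit Cxcl10 and Cxcl5, and dim signals limit Ccl3 and most receptors.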

Other observations

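Probe sets shared between near-identical copies of chemokine genes on chromosome 4 were not counted above. The probe set that names Ccl21a and 8 further symbols, of ligands that draw cells into lymph nodes, had signals of 66.23 and 49.54 (GapmeR Control first), a log2 ratio of -0.42. The probe set that names Ccl19 and 9 further symbols was dim on both arrays, with 37.63 and 28.61. The 2 probe sets that name Ccl27a and 4 further symbols, of a skin ligand, had 86.16 and 80.17, and 59.74 and 59.06. Among relatives with other names, the platelet ligand Pf4 had 80.28 and 53.56, a log2 ratio of -0.58, and Ppbp, Xcl1, Xcr1 and the atypical receptor relative Ccrl2 were dim on both arrays.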
